A study of Mus musculus with 4 samples.

Results

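The Ms4a genes on mouse chromosome 19 encode small membrane proteins that cross the membrane several times and are related to the B cell antigen CD20. The 8 members described here, Ms4a3, Ms4a4a, Ms4a4b, Ms4a4c, Ms4a6b, Ms4a6c, Ms4a6d and Ms4a7, were taken by name as a group linked to monocytes and macrophages, out of 21887 protein-coding genes in the RefSeq table. Their accessible regions were all called peaks that overlapped the gene body or the 10 kb on either side of it, merged across libraries where they shared at least 1 bp. This gave 1 region of 45299 in the whole series. ATAC-seq inserts sequencing adapters into open DNA with the Tn5 transposase, and a peak is a place where such fragments pile up above the local background. The libraries came from Gr1+CD11b+ myeloid-derived suppressor cells, sorted from ascites 14 days after mice had received EL4 T cell lymphoma cells. Mice were Sphk2 KO (n = 2 libraries), lacking sphingosine kinase 2, or WT (n = 2 libraries), and both groups carried the tumour. Age, sex, strain, the design of the deletion and any pooling of animals were not stated, and the labels do not tie the biological replicates to separate animals, so a test over libraries may measure technical spread.

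In mice, Ms4a3 marks progenitors shared by granulocytes and monocytes. Ms4a6c and Ms4a4c are expressed in inflammatory monocytes, and Ms4a4a, Ms4a6d and Ms4a7 in macrophages, where Ms4a4a associates with the fungal receptor dectin-1. Ms4a4b and Ms4a6b are known mainly from T cells, so the name of a monocyte cluster covers genes of more than 1 cell type. The genes arose by tandem duplication, and parts of them are still close copies of each other.

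The promoters show how close these copies are. RefSeq (GRCm38.p6, the same assembly as the files' mm10) gave a sequence from 250 bases before to 50 after the start for 7 of the 8 members, all but Ms4a6d, with 2 starts for Ms4a7. The Ms4a3 promoter (chr19:11640802-11641101, minus strand) is shown because the only region lies near it. The pairs Ms4a4b (chr19:11443308-11443607) and Ms4a4c (chr19:11407411-11407710), and Ms4a6b (chr19:11518309-11518608) and Ms4a6c (chr19:11469118-11469417), all on the plus strand, are shown as the closest copies. Capitals mark matches to the motifs named after them.
Ms4a3: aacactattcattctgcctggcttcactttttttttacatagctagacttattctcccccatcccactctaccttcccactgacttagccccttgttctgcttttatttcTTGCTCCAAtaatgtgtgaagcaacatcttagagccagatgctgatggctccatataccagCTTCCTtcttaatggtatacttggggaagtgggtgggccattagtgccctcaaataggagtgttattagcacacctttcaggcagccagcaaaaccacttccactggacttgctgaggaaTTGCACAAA
Ms4a4b: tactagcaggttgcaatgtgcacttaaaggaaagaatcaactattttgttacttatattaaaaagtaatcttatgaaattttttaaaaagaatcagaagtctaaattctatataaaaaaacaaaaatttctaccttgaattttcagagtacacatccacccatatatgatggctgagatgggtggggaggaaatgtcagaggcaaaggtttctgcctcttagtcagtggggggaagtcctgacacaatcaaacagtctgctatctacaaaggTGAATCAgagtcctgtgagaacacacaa
Ms4a4c: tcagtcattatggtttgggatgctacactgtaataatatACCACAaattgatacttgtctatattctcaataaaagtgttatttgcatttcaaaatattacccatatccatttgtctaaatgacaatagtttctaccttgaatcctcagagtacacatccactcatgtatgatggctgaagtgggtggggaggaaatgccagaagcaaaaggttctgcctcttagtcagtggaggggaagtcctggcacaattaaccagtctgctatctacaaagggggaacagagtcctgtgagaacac
Ms4a6b: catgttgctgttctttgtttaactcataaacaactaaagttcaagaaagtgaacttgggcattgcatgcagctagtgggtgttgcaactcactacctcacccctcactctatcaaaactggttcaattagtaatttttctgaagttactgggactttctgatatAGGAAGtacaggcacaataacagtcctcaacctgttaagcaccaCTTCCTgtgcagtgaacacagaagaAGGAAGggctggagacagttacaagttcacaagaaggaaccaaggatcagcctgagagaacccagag
Ms4a6c: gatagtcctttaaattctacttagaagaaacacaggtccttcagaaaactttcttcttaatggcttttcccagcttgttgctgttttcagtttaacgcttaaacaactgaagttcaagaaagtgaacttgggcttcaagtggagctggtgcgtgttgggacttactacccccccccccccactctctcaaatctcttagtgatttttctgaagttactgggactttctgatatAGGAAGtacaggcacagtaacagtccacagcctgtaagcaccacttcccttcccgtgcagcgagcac

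Ms4a6b and Ms4a6c matched at 189 of 220 aligned bases (85.9%), with an identical run of 48 bases. Ms4a4b and Ms4a4c matched at 228 of 282 aligned bases (80.9%), with a longest identical run of 20. No other pair of the 27 compared shared more than 60 aligned identical bases. How reads with more than 1 matching place were handled before peak calling was not stated, and its part in the calls was not tested.

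Motifs were searched on both strands. AGGAAG, the core bound by PU.1 and other ETS factors, occurred in the promoters of Ms4a3, Ms4a6b and Ms4a6c, or 3 of the 8 sequences, and in 35.4% of all 32851 promoters in the table. TTGCNNNAA, a C/EBP core, occurred in that of Ms4a3 and both of Ms4a7, against 9.56% of all promoters. TGANTCA, an AP-1 core, was found in Ms4a4b and in 1 Ms4a7 promoter, where it overlaps the TTGCNNNAA match (7.81% of all promoters). TGTGGT, a RUNX core, was found in Ms4a4c (16.8%). The IRF core, a pair of GAAA with 2 bases between them, was found in 0 of the 8 and in 3.44% of all promoters. None of these promoters overlapped a called peak, so the matches describe sequence only.

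Every library was made from 20000 cells with Tn5 at 40% of the recommended amount, and the part of this in the calls was not tested. The libraries differed in depth and in marker peaks. Sphk2 KO replicate 1 had the fewest fragments and the shortest list, 20759 peaks, against 27446 in Sphk2 KO replicate 2 and 31507 and 31843 in WT. At the targeted gene, 2 peaks overlapped the Sphk2 gene body in each Sphk2 KO library and 1 in each WT library, and a peak list does not measure which part was deleted. Markers of the sorted and of other cells were counted first by peaks in the 10 kb window, and then by peaks lying 1 kb or less from either end of the gene. Over all protein-coding genes, 56.5% and 62.4% had a window peak in Sphk2 KO replicates 1 and 2 and 64.5% and 65.1% in WT replicates 1 and 2. A peak at a gene end was found for 42.6% and 47.3% of them in Sphk2 KO replicates 1 and 2 and for 47.9% and 48.8% in WT replicates 1 and 2. Of 11 monocyte or macrophage genes, 6 and 9 had a window peak in Sphk2 KO and 10 and 11 in WT, and 4 and 6 had one at a gene end in Sphk2 KO and 9 and 10 in WT. Of 11 neutrophil genes, 9 and 10 had a window peak in Sphk2 KO and 10 and 10 in WT, and 8 and 9 had one at a gene end in Sphk2 KO and 9 and 8 in WT. Itgam, which encodes CD11b, had one at a gene end in every library. Of 20 T cell genes, whose peaks could come from host T cells or EL4 cells, 8 and 11 had a window peak in Sphk2 KO and 14 and 15 in WT, and 3 and 4 had one at a gene end in Sphk2 KO and 3 and 9 in WT. WT replicate 2 was thus highest for T cell genes by both counts, by 1 gene in windows and by 5 at gene ends. It was also highest by both counts for monocyte or macrophage genes and over all protein-coding genes. Of 8 B cell genes, 3 and 3 had a window peak in Sphk2 KO and 4 and 3 in WT, and 0 had one at a gene end in any library. Of 6 mast cell genes, 0 and 1 had a window peak in Sphk2 KO and 1 and 2 in WT, and 0 and 1 had one at a gene end in Sphk2 KO and 1 and 1 in WT. Of 6 dendritic cell genes, 4 and 5 had a window peak in Sphk2 KO and 5 and 5 in WT, and 2 and 4 had one at a gene end in Sphk2 KO and 4 and 4 in WT. Their part in the calls at the Ms4a genes was not tested.

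Almost no accessible region was called at the 8 genes in either genotype. In Sphk2 KO, 0 members had a peak in their window in replicate 1 and 1 member had one in replicate 2. In WT, 1 member had one in replicate 1 and 0 in replicate 2. The member was Ms4a3 both times. Ms4a7, Ms4a4a, Ms4a4c, Ms4a4b, Ms4a6c, Ms4a6b and Ms4a6d had 0 peaks in all 4 libraries. The share over all protein-coding genes was 56.5% and 62.4% in Sphk2 KO and 64.5% and 65.1% in WT, with 55.2% having a window peak in all 4 libraries and 30.5% in none. The number of regions at the members averaged 0.5 ± 0.707 in Sphk2 KO and 0.5 ± 0.707 in WT (SD, n = 2 libraries each). The difference was 0, it was 0.5 without Sphk2 KO replicate 1 and -0.5 without WT replicate 2, and a two-sided exact permutation test over the libraries gave p = 1. With 2 libraries against 2 the smallest p it can give is 0.333, so this test could not have passed 0.05 whatever the calls were.

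**Figure D1:**
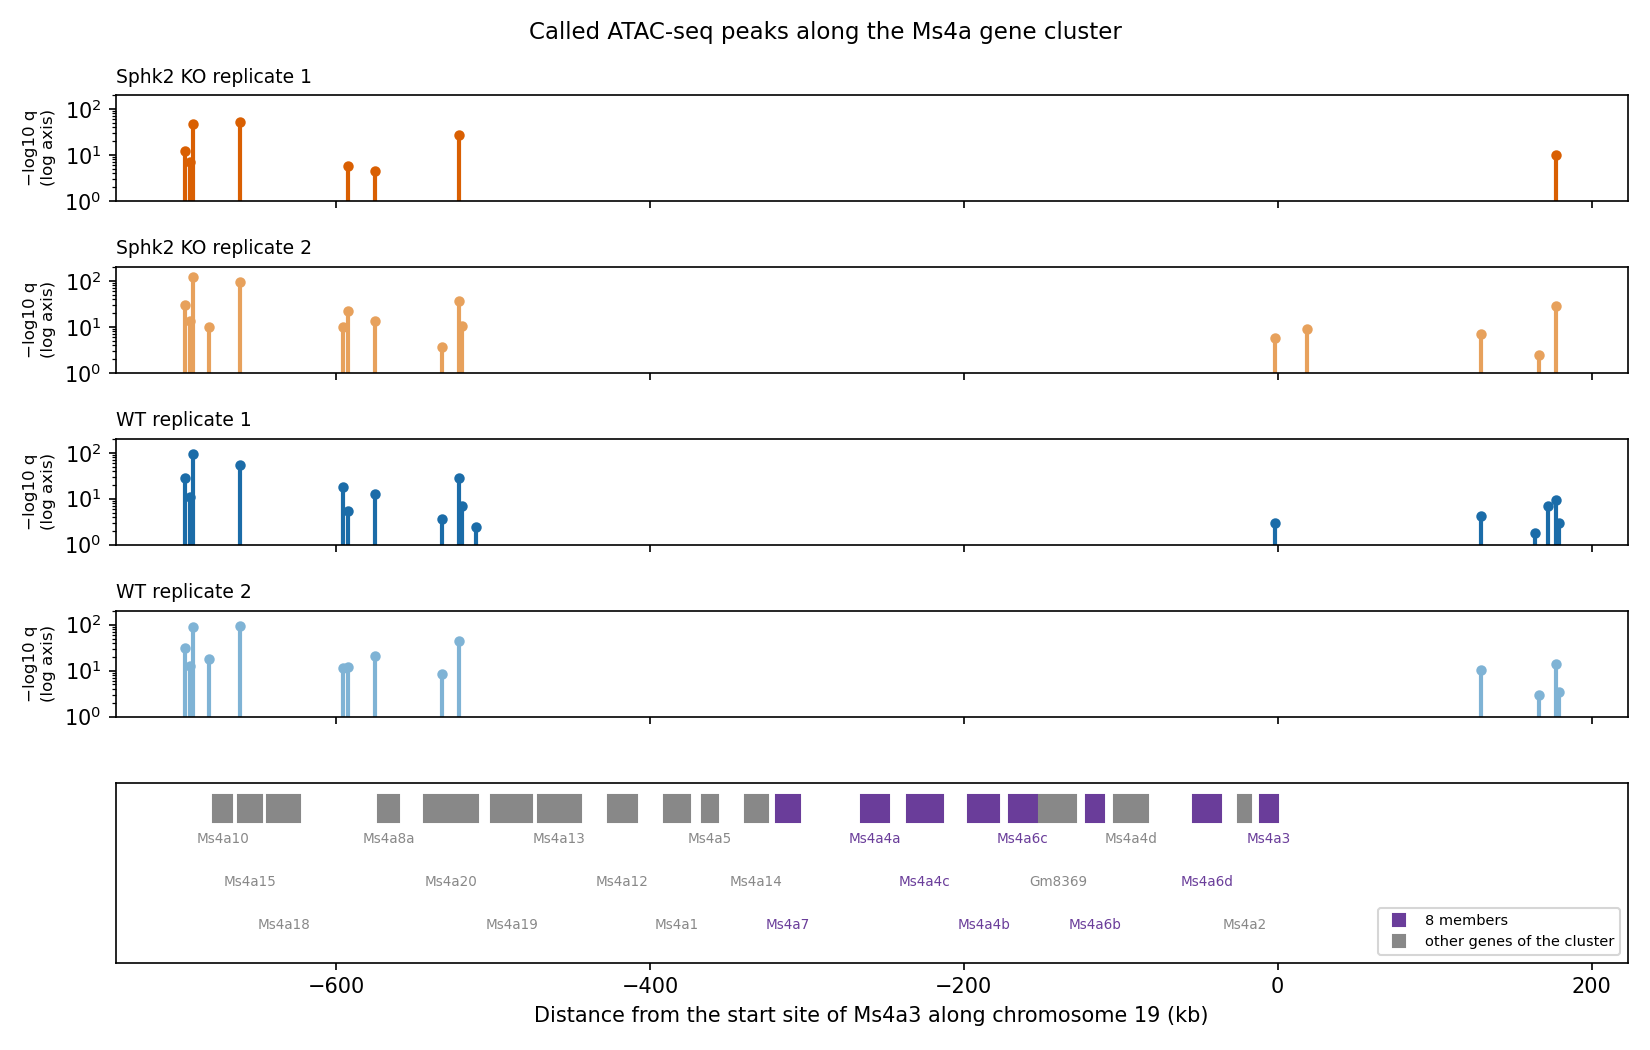
Peaks called in each library along the Ms4a cluster, by distance in kb from the Ms4a3 start site (horizontal) and the authors' −log10 q (vertical, log axis), with gene bodies below and the 8 members in purple; heights are not comparable between libraries. Peaks stand on both sides of the cluster in all 4 libraries, and 1 position inside Ms4a3 is the only one within the members.

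All members but Ms4a3 lay inside a stretch of 508.9 kb with no peak in any of the 4 libraries, which ended within Ms4a3. It ran from 11130286 to 11639182 on chromosome 19 (mm10) and held 16 protein-coding genes, 15 of them named Ms4a and 7 of them members. Taken library by library, the stretch measured 698.6 kb in Sphk2 KO replicate 1 and 517.8 kb in replicate 2, and 508.9 kb in WT replicate 1 and 650.4 kb in replicate 2. In Sphk2 KO replicate 1 and WT replicate 2 it also took in Ms4a3, so that all 8 members fell within it. The median distance between neighbouring regions over the genome was 17.6 kb, and 646 of 45278 such gaps (1.43%), itself included, were at least as long. On chromosome 19 it was the gap ranked 20 of 1259. A total of 24 other gaps were both at least as long and at least as rich in protein-coding genes, 11 of them on X or Y and 13 on autosomes. Of those 13, 6 held mostly olfactory or vomeronasal receptor genes, and others held keratin-associated, defensin and mast cell protease genes.

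Distances were also taken from the start sites of the 7 members with a start in the table. For a start inside the stretch, the nearest peak lay at an edge of it. Such distances therefore follow from the stretch and are not a separate result. In Sphk2 KO replicate 1 the nearest peak to any member start lay 177.5 kb away (Ms4a3) and the median over members was 288.0 kb. In Sphk2 KO replicate 2 the lowest was 1.23 kb (Ms4a3) and the median 195.6 kb. In WT replicate 1 the lowest was 1.43 kb (Ms4a3) and the median 195.6 kb, and in WT replicate 2 they were 129.4 kb (Ms4a3) and 255.6 kb. Sphk2 KO replicate 1 and WT replicate 2 were thus the libraries farthest from a peak, 1 of each genotype. Over 16457 autosomal protein-coding genes the median was 4.28 and 0.487 kb in Sphk2 KO replicates 1 and 2 and 0.249 and 0.115 kb in WT replicates 1 and 2. The 6 members other than Ms4a3 lay at least 215.0 and 120.6 kb from a peak in Sphk2 KO and at least 120.6 and 214.9 kb in WT. Genes at least that far made up 10.1% and 14.3% of all in Sphk2 KO and 11.3% and 6.05% in WT. Ms4a6d, for which no start was given, lay 34.4 kb by its nearer gene end from the Ms4a3 region in the libraries that called it.

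**Figure D2:**
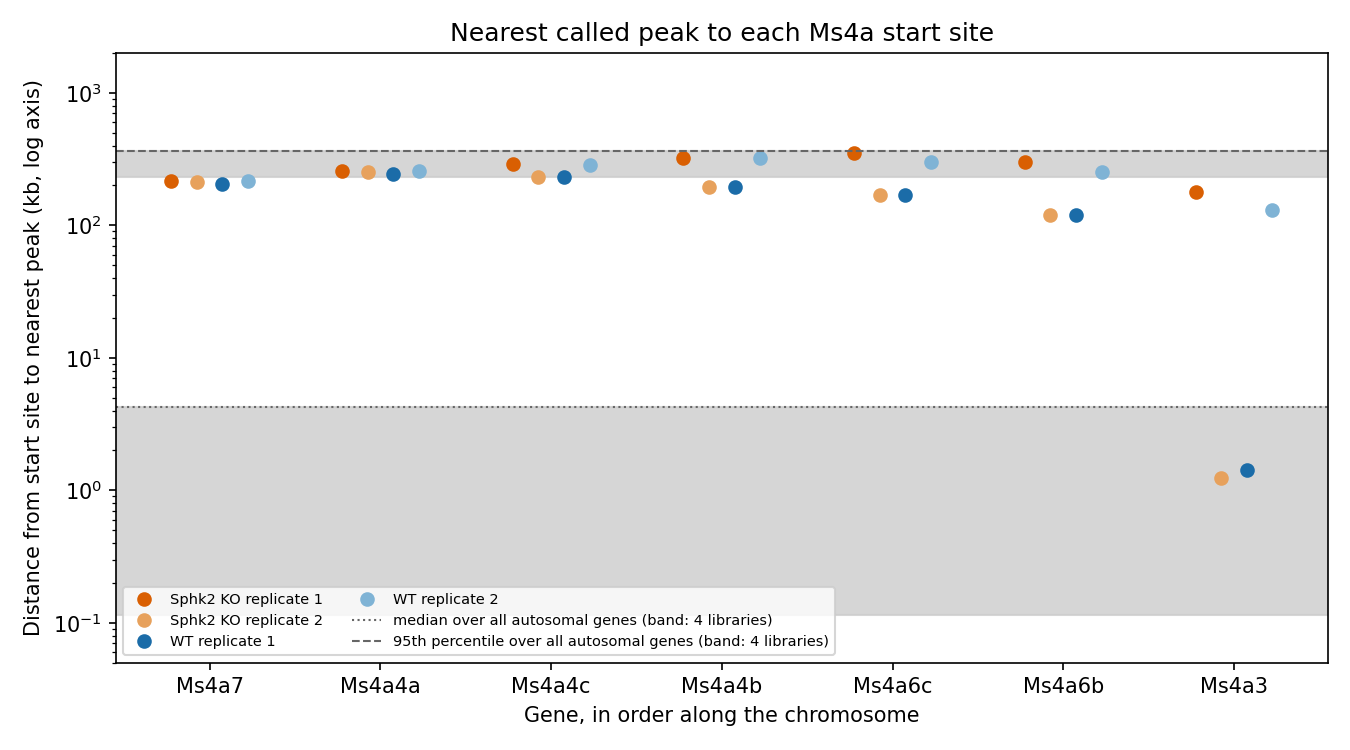
Distance in kb from each member's start site to the nearest called peak (vertical, log axis), 1 point per library, for the 7 members with a start in RefSeq; bands give the range over libraries of the median and the 95th percentile of all autosomal genes. The 6 members other than Ms4a3 sit between 120.6 and 348.9 kb, and Ms4a3 is at 1.23 kb in Sphk2 KO replicate 2 and 1.43 kb in WT replicate 1.

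The only region at the members lay inside Ms4a3, the progenitor gene. It spans 11639183 to 11639623 on chromosome 19 (mm10, 441 bp). Ms4a3 runs from 11629499 to 11640851 on the minus strand, so the near edge of the region is 1228 bp into the gene from its start; the table gives no exons or introns. The summit lay 1626 bp from the start in Sphk2 KO replicate 2 and 1591 bp in WT replicate 1. The region therefore missed the 1 kb around the start, and 0 of the 8 members had a peak there in any library. For Ms4a6d, for which RefSeq gave no start, both gene ends were used instead. The share of all protein-coding genes with a peak at either end, given above, was 42.6% and 47.3% in Sphk2 KO and 47.9% and 48.8% in WT. Counted at either end in the same way, 0 of the 8 members had a peak in any library.

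It was a weak call in both libraries. In Sphk2 KO replicate 2 the peak had the authors' −log10 q of 5.78, a fold enrichment of 4.23 over local background and a pileup of 18 fragments. In WT replicate 1 it had a −log10 q of 2.98, a fold enrichment of 3.31 and a pileup of 14 fragments. No peak was called there in Sphk2 KO replicate 1 or WT replicate 2, so neither genotype had it in both libraries. It ranked 20743 of 27446 peaks in Sphk2 KO replicate 2, behind 75.6% of that list, and 25625 of 31507 in WT replicate 1, behind 81.3%. The median −log10 q was 19.1 over the list of Sphk2 KO replicate 2 and 12.03 over that of WT replicate 1.

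The pileup showed the same within each list. The Ms4a3 peak stood at or above 20.8% of the peaks of Sphk2 KO replicate 2 and 16.6% of those of WT replicate 1. The lowest called peak had 11 fragments in Sphk2 KO replicates 1 and 2 and 11 and 12 in WT replicates 1 and 2. Retained fragments numbered 25877428 and 27686223 in Sphk2 KO replicates 1 and 2, against 33859480 and 34443062 in WT replicates 1 and 2. The libraries without the Ms4a3 peak were thus the shallowest, Sphk2 KO replicate 1, and the deepest, WT replicate 2. The part of depth in these calls was not tested, and a missing peak does not show closed chromatin. In sorted bulk cells, fewer cells with an open region and less opening per cell cannot be told apart.

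**Figure D3:**
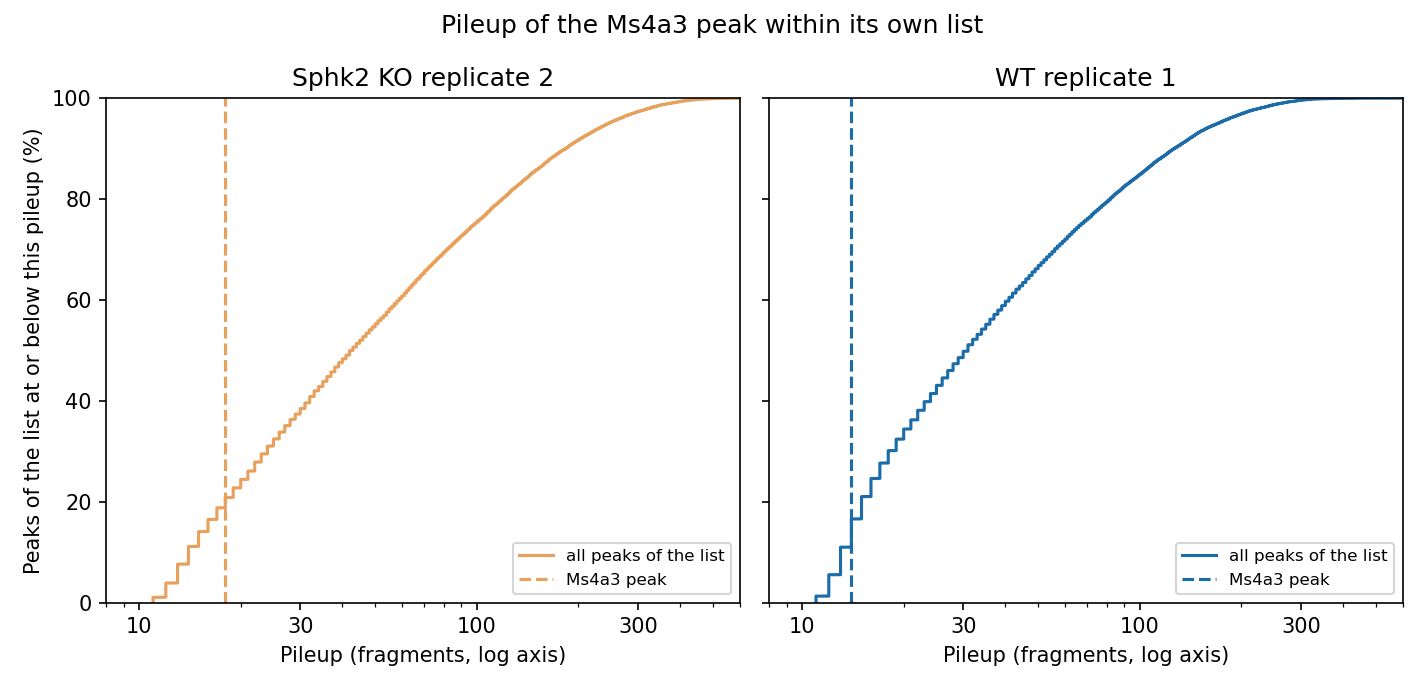
Share of a library's own peaks (vertical, %) at or below a given pileup in fragments (horizontal, log axis), for Sphk2 KO replicate 2 and WT replicate 1, with a dashed line at the Ms4a3 peak. The line meets the curve at 20.8% in Sphk2 KO replicate 2, at 18 fragments, and at 16.6% in WT replicate 1, at 14 fragments.

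No region at the members separated the genotypes. Regions private to Sphk2 KO, called in each of its libraries but in no WT one, numbered 0, against 0.605% of all regions. Regions private to WT, by the same rule, numbered 0, against 5.43%. Regions called in all 4 libraries also numbered 0, against 37.5%, so ranks could not be compared between genotypes. The pattern of the Ms4a3 region, Sphk2 KO replicate 2 and WT replicate 1 alone, was shared by 760 regions (1.68%), and the same pattern of window peaks by 0.576% of protein-coding genes. By gene windows, 0 of the 8 members were private to Sphk2 KO, against 0.114% of protein-coding genes, and 0 were private to WT, against 2.14%. At these shares fewer than 1 of 8 genes would be private to a genotype. Zeros were therefore likely beforehand and cannot tell whether the members differ from other genes. The region counts rest on 1 region at the members and are no more informative.

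Just outside the 10 kb limit, the nearest region was at 11659226 to 11659454, 18.4 kb from Ms4a3 and inside Oosp2, an oocyte gene. It was called in Sphk2 KO replicate 2 alone, with a −log10 q of 8.86 and a pileup of 22 fragments. On the other side the nearest region was 190.8 kb from Ms4a7, inside Ms4a20, and was called in WT replicate 1 alone (−log10 q 2.38).

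Some other genes of the family had peaks in every library. Of 14 listed, 12 on chromosome 19 and the related Tmem176a and Tmem176b on chromosome 6, 4 and 6 had a window peak in Sphk2 KO replicates 1 and 2 and 7 and 6 in WT replicates 1 and 2. Shares over all protein-coding genes were higher in each library, 56.5% and 62.4% in Sphk2 KO and 64.5% and 65.1% in WT. The listed family genes with a window peak in all 4 libraries were Ms4a8a, Ms4a10, Ms4a15 and Ms4a20, at the far end of the cluster from Ms4a3. The windows of Ms4a10 and Ms4a15 share a region. The region inside Ms4a15 (10979284 to 10980201) had −log10 q of 52.4 and 96.0 in Sphk2 KO and 54.7 and 92.2 in WT. That inside Ms4a20 (11118521 to 11119841) had 26.6 and 36.3 in Sphk2 KO and 28.2 and 43.9 in WT. These values were not compared between lists. Ms4a1, which encodes CD20, and Ms4a2, the beta chain of the high-affinity IgE receptor of mast cells and basophils, had 0 peaks in all 4 libraries, as did Ms4a4d, Ms4a5, Ms4a13 and Ms4a14, all of them inside the peak-free stretch. Ms4a18 (10997024 to 11018026) also had 0 in all 4 libraries, although it lies between Ms4a15 and Ms4a8a. Ms4a19, inside the stretch, had a window peak in WT replicate 1 alone. The region at the shared start of Tmem176a and Tmem176b was called in Sphk2 KO replicate 2 (−log10 q 2.47) and in WT replicates 1 and 2 (2.38 and 4.75).

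Other tandem clusters of myeloid or interferon-induced genes had a larger share of genes with a window peak than the members in each library. Neighbouring windows can share a peak, so these are counts of genes and not of peaks. Of 9 Clec4 lectin receptor genes, 7 and 8 had a window peak in Sphk2 KO and 8 and 8 in WT. Of 6 Ifit antiviral genes, 5 and 5 had one in Sphk2 KO and 6 and 6 in WT. Of 12 Ly6 genes on chromosome 15, 3 and 4 had one in Sphk2 KO and 5 and 5 in WT. The Ly6 shares were lower in each library than those over all protein-coding genes, 56.5% and 62.4% in Sphk2 KO and 64.5% and 65.1% in WT. Those of the Clec4 and Ifit genes were higher. Peaks at the Ly6 genes and at the genes of the sort were mixed, which bears on how an absent peak is read. Ly6g, which encodes the main target of the Gr1 antibody, had a window peak in WT replicate 2 alone. Ly6c1 had 0 in all 4 libraries. Ly6c2 had a window peak in Sphk2 KO replicate 2 and in both WT libraries, and Itgam had one in every library. These lists were set beside the members without a test.

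**Figure D4:**
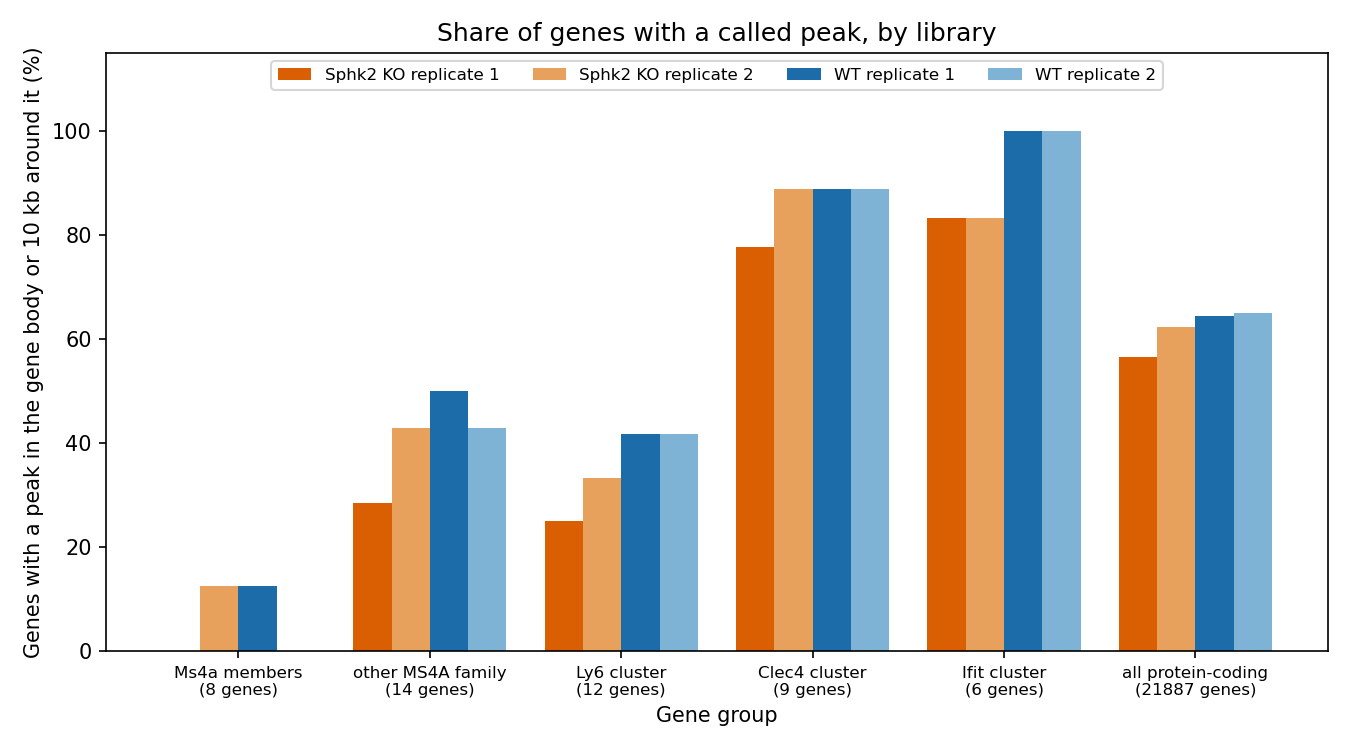
Share of genes (vertical, %) with a called peak in the gene body or the 10 kb around it, for each gene group, with 1 bar per library. The 8 Ms4a members have 0, 1, 1 and 0 such genes in Sphk2 KO replicates 1 and 2 and WT replicates 1 and 2, and the 9 Clec4 genes have 7, 8, 8 and 8.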

How the data were processed

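Per the submitters' processing notes, cutadapt, BWA and MACS2 were used with the build mm10. Per the file headers, MACS 2.1.1.20160309 called peaks separately in each library on paired-end fragments, without a control, at a q-value of 0.05, keeping 1 fragment per position. Each deposited list gives a pileup signal that is not scaled to depth, the −log10 of the p-value and q-value, and the fold enrichment, a ratio to local background; all are the authors' own values and were used only within a list. The lists held 20759 and 27446 peaks in Sphk2 KO and 31507 and 31843 in WT.

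Gene bodies, starts and promoters came from RefSeq tables for GRCm38.p6. Gaps were measured between neighbouring peaks on a chromosome. Promoters were aligned pairwise with Biopython 1.88 in Python 3.11.15. A two-sided exact permutation test was run on counts per library. The script was tested on simulated peak lists. All 8 members are named; values were given for every region at them. No member had a peak in all 4 libraries, so no genes of like pattern were sought. Members and lists were chosen with earlier results of these data known, and the Ly6, Clec4 and Ifit lists were added after the members' peaks had been seen. Ms4a12 and Gm8369 were counted in the gap without being in a list. Other settings are given in the closing section.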

Additional observations from a re-analysis of the deposited data

How the results depend on the processing

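The count of regions per library differed between the genotypes by at most 0.5 in every setting run. The difference between Sphk2 KO and WT was 0 as reported, 0 with gene bodies extended by 0 kb, with peaks up to 500 bp apart merged and with windows of 250 bp around summits, and 0.5 when peaks under a −log10 q of 5 were dropped or gene bodies were extended by 20 kb. It was also 0.5 with an extension of 50 kb, a setting chosen after the data had been seen. Lists cut to the length of the shortest, 20759 peaks, gave 0.5, because the Ms4a3 peak of Sphk2 KO replicate 2 was tied with 289 others at the last place and was kept. Leaving out 1 library gave differences from -0.5 to 0.5. The exact permutation p was 1 in each. Members with a peak at their start numbered 0 in every setting except within 2 kb, where Ms4a3 counted in Sphk2 KO replicate 2 and WT replicate 1. Regions private to a genotype or called in all 4 libraries numbered 0 throughout, so the planned ranks by fold enrichment and by percentile had nothing to compare. With the replicate number as a block the differences were 0 and 0 and the exact p was 1, where 0.5 is the smallest possible; the labels do not say that a shared number links libraries. The part of depth in these calls was not tested; Sphk2 KO replicate 1, the shallowest library, and WT replicate 2, the deepest, both lacked the Ms4a3 peak.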
